A study of Mus musculus with 9 samples.

Results

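The comparison set colonic RNA of mice that were given PAMK after DSS colitis against that of mice that were given only saline after it. It used 6 of the 9 arrays of the series, the 3 labeled DSS+PAMK and the 3 labeled DSS, chosen by these labels and not by any measured value, and the 3 Control arrays are given beside them. All animals were male C57BL/6J mice, 10 weeks old. For 7 days, Control mice had distilled water, while the other mice were given DSS at 3%, a sulfated polysaccharide that injures the colonic epithelium. In the period from day 8 until day 14, DSS+PAMK mice received 200 mg/kg PAMK by gavage, a polysaccharide from the rhizome of Atractylodes macrocephala, and DSS and Control mice received 1 ml of saline per 100 g. The comparison addressed which colonic transcripts differed when PAMK was given during recovery from DSS.

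The colonic surface is lined by absorptive colonocytes, which exchange chloride, sodium and magnesium with the lumen, and by goblet cells, which secrete the mucus that keeps bacteria away from the tissue. When DSS breaks this lining, the epithelium produces antibacterial lectins and oxidants, and neutrophils and monocytes enter the wall, where they release proteases, chemokines and calprotectin. Inflamed tissue is also known for acute phase proteins such as haptoglobin and serum amyloid A and for the response to interferon.

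In the colon of DSS+PAMK mice, the probes named Mptx1 and Mptx2, after the mucosal pentraxins, secreted lectin-like proteins of the gut epithelium, had higher signals than in the colon of DSS mice, by 5.59 and 5.30 on the log2 scale (standard errors 0.87 and 0.86, n = 3 per group). All standard errors given are those of a limma fit to the 9 arrays, so the spread of the Control arrays is part of them. The probe named Mptx1 matches both genes, so a rise of Mptx1 itself is not shown. Of the genes of surface colonocytes and of those of goblet cells and mucus, 3 of 4 measured members each were called higher, where 0.602% of all tested probes were, among them Slc26a3, the chloride and bicarbonate exchanger of surface colonocytes, which differed by 1.11 (standard error 0.18), while the sodium channel subunit gene Scnn1b was called lower at -1.02. In the other direction, the antibacterial lectin gene Reg3g differed by -4.88 and the haptoglobin gene Hp by -4.34, with -5.31 to -3.61 for Hp when any 1 array was left out. Genes of neutrophils and monocytes, acute phase and plasma proteins, interferon response and extracellular matrix were called lower in 16 of 17, 10 of 10, 6 of 7 and 6 of 6 of the members with a named and tested probe, where 1.06% of all tested probes were called lower. With slide as a block, these counts were 12, 9, 3 and 5, and those of the colonocyte and goblet cell genes called higher were 2 each. Under a normexp background, the counts of the lower lists were 10, 5, 1 and 4. With 3 arrays per group, 0 of these differences passed adjustment over all probes, and most of the names come from lists that the authors had selected on these same arrays, so that their directions are not independent evidence.

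An array had 180880 spots, and the 166924 probes, each of 60 bases, filled 175906 of them. The median processed intensity was 14.1, 20.7 and 22.1 on DSS replicates 1, 2 and 3 and 15.5, 15.7 and 24.1 on DSS+PAMK replicates 1, 2 and 3. Among probe spots, 57.4%, 62.5% and 66.8% on the DSS arrays and 55.4%, 55.7% and 67.3% on the DSS+PAMK arrays were well above background, and the groups overlapped in both measures. DSS replicate 1 lay on slide 1 with the 3 Control arrays, slide 2 held DSS replicates 2 and 3 together with DSS+PAMK replicates 1 and 2, and DSS+PAMK replicate 3 was on slide 3. Slide 2 was thus the only slide with arrays of both groups, and values within it are given as within-slide differences. A fit with slide as a fixed block gives the same differences, since it draws this comparison from slide 2 alone. Its p-values also rest on the spread of the Control arrays, which slide 2 does not hold, so calls can differ between these fits.

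A probe entered the test where it was well above background on all 3 arrays of at least 1 of the groups, which held for 89713 probes. Of these, 77467 were well above background on all 6 arrays, 5679 on every DSS+PAMK array but not on every DSS array, and 6567 the other way round. A principal component analysis of the 6 arrays placed DSS replicate 1 apart on component 1 (41.8% of the variance), at 149.8, with the other 5 arrays between -56.69 and 7.53. On component 2 (23.2%), the DSS+PAMK arrays were at 35.34, 50.56 and 31.06, and DSS replicates 2 and 3 at -64.99 and -80.16. DSS replicate 1 lay at 28.18 on that component, next to the DSS+PAMK arrays, and was the only array of these groups on slide 1, so that its own variation and its slide cannot be told apart. The Pearson correlation between arrays of the tested probes, across probes, lay between 0.985 and 0.990 within the DSS+PAMK group and between 0.967 and 0.986 within the DSS group.

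**Figure D1:**
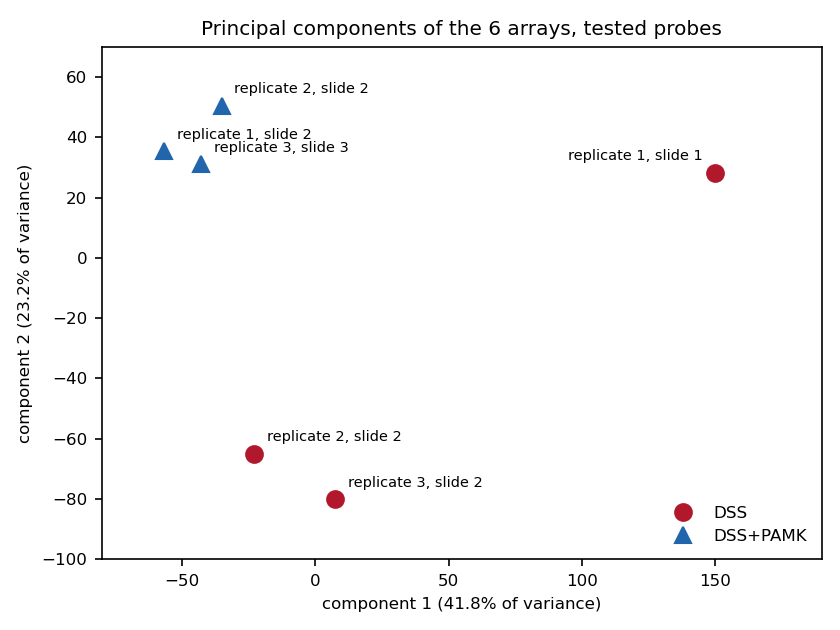
Principal components of the 6 arrays over the tested probes, with component 1 (41.8% of the variance) on the horizontal axis and component 2 (23.2%) on the vertical axis, 1 point per array. DSS replicate 1 stands alone on the right at 149.8, and DSS replicates 2 and 3 lie below the DSS+PAMK arrays.

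Calls needed a difference of 2-fold or more with an unadjusted p no higher than 0.05, the thresholds of the methods. With DSS+PAMK set against DSS, limma called 540 of the 89713 tested probes higher (0.602%) and 952 of them lower (1.06%), 1492 in either direction (1.66%). The arrays of the groups did not overlap for 15453 tested probes (17.2%). At 4-fold or more, 65 of the called probes were higher and 147 lower, and at 8-fold or more, 13 and 42. The median difference was 1.27 on the log2 scale over the higher probes, -1.33 over the lower probes and 0.02 over all tested probes. Limma called 0 probes once p was adjusted over all tested probes by Benjamini-Hochberg, where the smallest adjusted p was 0.555, and 7152 probes (7.97%) reached an unadjusted p of 0.05 or less. The methods' t-test called 454 higher and 509 lower and also 0 after adjustment, and 836 probes were called by both tests. A limma fit on the 6 compared arrays alone called 656 higher and 979 lower. Adjustment left 0 calls there as well, where the smallest adjusted p was 0.0571, and over all alternatives that value lay between 0.0571 and 0.777.

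These counts depended on the filter, on the treatment of background and on single arrays. With no filter on dim probes, 1801 were higher and 2664 lower. Without DSS replicate 2, 913 probes were higher and 1485 lower, and without DSS+PAMK replicate 1, 359 and 816. Within slide 2 alone, 1084 were higher and 883 lower, and with slide as a fixed block 801 and 710, so that 55.1% and 53% of the calls were higher, against 36.2%. All 1492 called probes had the same sign within slide 2, where 412 of the 540 and 725 of the 952 also differed by at least 2-fold. These 4 arrays are part of the comparison itself, so this is a description and not a second test. A normexp background, which adds an offset of 50 to every spot, left 108 higher and 224 lower.

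**Figure D2:**
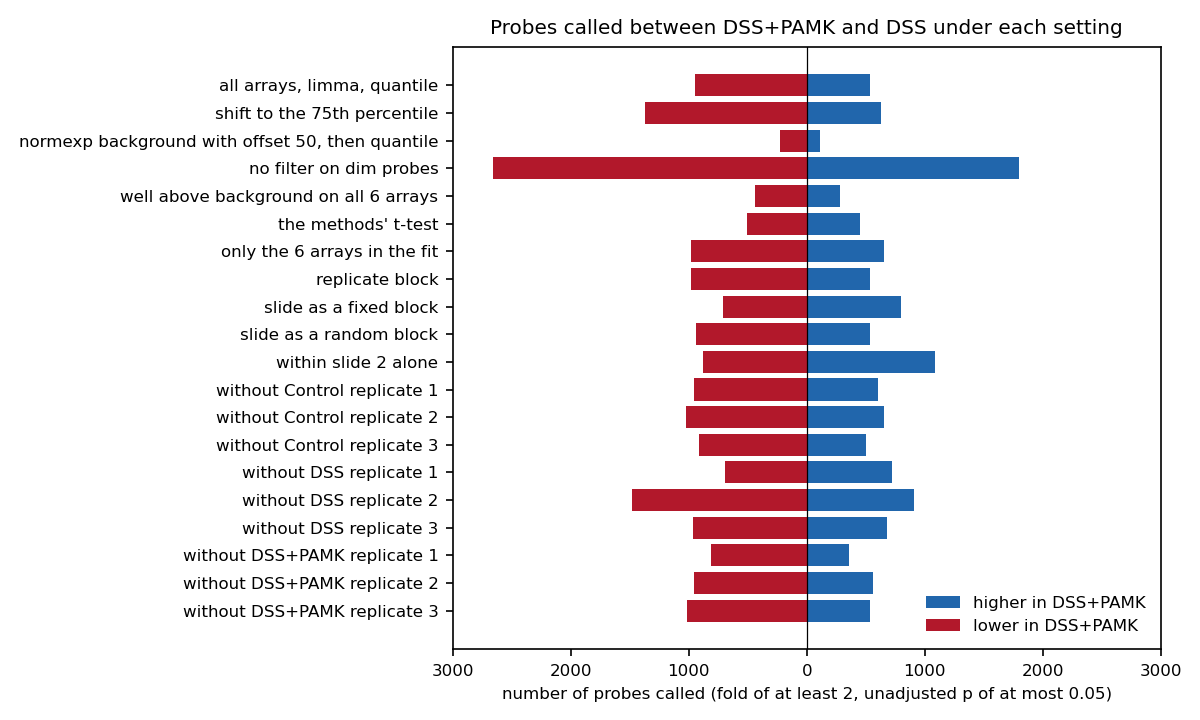
Number of probes called higher (right) and lower (left) in DSS+PAMK than in DSS under each setting, at 2-fold or more and an unadjusted p no higher than 0.05. The counts range from 108 higher and 224 lower with the normexp background to 1801 and 2664 with no filter on dim probes.

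The deposited array files hold no gene column, so a probe was named by the supplementary sheets, by a primer of the study or by the start of a RefSeq transcript. This named 744 probes for 715 genes, of which 387 had a tested probe. Of these, 31 were called higher and 108 lower. All but 33 of the tested genes named by the sheets are listed there for a difference between DSS+PAMK and DSS, or for a reversal that includes it, so counts over them follow from that choice. Named without any such choice, the 215 tested genes found by transcript start had 0 called higher and 5 called lower (2.33%), with no overlap between the groups for 33 (15.3%) and a median difference of -0.05. The 33 genes that the sheets list only for DSS against Control had 3 called higher and 0 lower. The DSS and DSS+PAMK arrays did not overlap for 18 of them (54.5%), against 17.2% of all tested probes. These genes had been selected on the same DSS arrays.

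Values given for an array are quantile normalized log2 intensities, in the order of replicates 1, 2 and 3. The genes with the largest changes were taken among those whose groups do not overlap, so the absence of overlap for them is part of the choice.

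**Figure D3:**
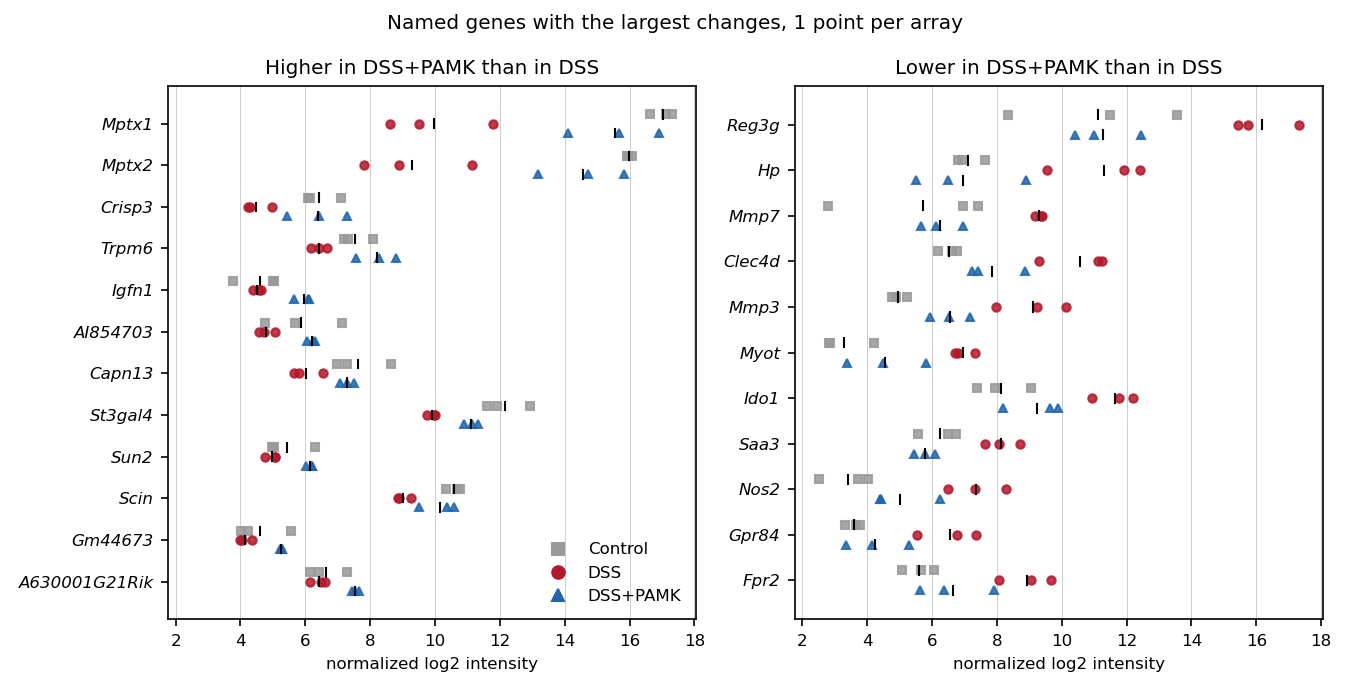
Normalized log2 intensity (horizontal axes) of named genes with the largest called changes among genes measured on all 6 arrays, 12 higher and 11 lower, with 1 point per array and a black line at each group mean. Mptx1 lies between 8.61 and 11.80 on the DSS arrays and between 14.09 and 16.91 on the DSS+PAMK arrays, and Reg3g between 15.43 and 17.32 and between 10.42 and 12.43.

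The probes that carried the largest rise, those of the mucosal pentraxins, are shown by their first 30 bases with that of S100a8, the calprotectin subunit gene discussed with the myeloid genes, because they differ in how surely they point to 1 gene. Capitals mark bases identical to the window around the start of a RefSeq transcript of that gene on GRCm38.p6, 250 bases before and 50 after it. Lower case marks bases that were not matched to such a window.
Mptx1: AGAGATGAGGGTTGCTGATCTCCCACTACT
Mptx2: atatgctctatgttgggaattcgggagtca
S100a8: CATATCCTTTGTCAGCTCCGTCTTCAAGAC
The printed stretch of the Mptx1 probe lies at chr1:174330521-174330550 on the plus strand, at the start of Mptx1, and equally at chr1:173277745-173277774 on the minus strand, at the start of Mptx2. Over its whole length of 60 bases, the probe shared 47 in a row with the window of Mptx1 and 60 with that of Mptx2, so that its signal cannot be assigned to either gene alone. Because the windows end 50 bases after the start, part of the match to Mptx2 lies before its annotated start. The lengths therefore do not rank the match to these transcripts. The Mptx2 probe shared at most 7 bases in a row with either window, and its name rests on the sheets alone. The stretch of S100a8 lies at chr3:90669068-90669097 on the plus strand, and 35 bases of that probe matched the start of the gene.

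Mptx1 had 11.80, 8.61 and 9.49 on the DSS arrays, 16.91, 14.09 and 15.66 on the DSS+PAMK arrays and 16.62, 17.31 and 17.12 on the Control arrays. Mptx2 had 11.13, 7.80 and 8.90, 15.83, 13.17 and 14.72 and 15.93, 16.09 and 15.96 in the same order. For both, the lowest DSS+PAMK array, replicate 2, lay above the highest DSS array, replicate 1, and all DSS+PAMK arrays lay below all Control arrays except for replicate 1 of Mptx1, which lay among them. The difference of Mptx1 was 48.1-fold (adjusted p = 0.555 from limma) and that of Mptx2 39.3-fold. The standard deviation of Mptx1 was 1.65 on the DSS arrays and 1.41 on the DSS+PAMK arrays but 0.36 on the Control arrays, which limma's estimate includes. Its unadjusted p was 0.000145 from limma and 0.0111 from the methods' t-test, which uses only the compared groups. Within slide 2 the differences were 6.45 and 6.15 on the log2 scale, and with any 1 array left out that of Mptx1 lay between 4.91 and 6.50.

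Among the surface colonocyte genes, 4 of 28 had a named and tested probe, all named by the sheets, and 3 were called higher and 1 lower, with a median of 1.103 and within slide 2 of 1.26. Slc26a3 had 12.84, 12.46 and 12.43 on the DSS arrays and 13.68, 13.71 and 13.68 on the DSS+PAMK arrays, where the 3 values lay close together. Trpm6, an epithelial magnesium channel, had 6.66, 6.43 and 6.18 and 8.27, 8.79 and 7.57, and differed by 1.79 (standard error 0.34, n = 3). For both genes every DSS+PAMK array was above every DSS array. Aoc1, the diamine oxidase that degrades histamine, differed by 1.09, and Scnn1b, the beta subunit of the epithelial sodium channel, by -1.02, so that the sodium channel subunit was lower while the exchanger and the magnesium channel were higher. The calls of Aoc1 and Scnn1b were lost without DSS+PAMK replicate 1, where the differences were 0.97 and -0.70, and without DSS replicate 3, where they were 1.01 and -0.95. Scnn1b was also under 2-fold without DSS replicate 1, at -0.99, and under the normexp background, at -0.96, and Aoc1 also missed the p threshold with slide as a block, although its difference was larger there, at 1.26. Within slide 2 alone, Aoc1 was called at that difference.

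Of 24 goblet cell and mucus genes, 4 had a named and tested probe, all named by the sheets. Of these, 3 were called higher and 0 lower, with a median of 1.17 and within slide 2 of 1.23, where 0.602% of all tested probes were called higher. Fcgbp, a large protein of the mucus gel, had 12.58, 12.74 and 12.94 on the DSS arrays and 14.37, 13.10 and 14.01 on the DSS+PAMK arrays. The sialyltransferase genes St3gal4 and St3gal6 differed by 1.22 and 1.11 (standard errors 0.31 and 0.23), and every DSS+PAMK array was above every DSS array for all 3. The St3gal4 value is that of the brighter of a pair of probes, and its other probe, at 0.81, was not called. Itln1, an intelectin of goblet cells, had 8.94, 9.68 and 11.16 and 14.22, 9.23 and 12.40, with groups that overlapped, and was not called. Of these genes, Fcgbp lost its call most often. Its difference was 0.90 within slide 2 and 0.80 without DSS+PAMK replicate 1, and also under 2-fold without DSS replicate 1 or DSS+PAMK replicate 3, at 0.99 and 0.98. In whole tissue, fewer cells of a type and less RNA per cell cannot be told apart, which holds for every gene group given here.

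Of 28 antimicrobial genes, 11 had a named and tested probe, 10 of them named by the sheets. Apart from Mptx1 and Mptx2, all 9 were called lower, and the median of the 11 was -2.34, or -1.57 within slide 2. Reg3g, which encodes a lectin that kills Gram-positive bacteria, had 15.76, 15.43 and 17.32 on the DSS arrays, 10.42, 12.43 and 11.002 on the DSS+PAMK arrays and 13.54, 8.35 and 11.48 on the Control arrays. Its DSS arrays lay above all arrays of the other groups, and the DSS+PAMK arrays lay within the range of the Control arrays. The related Reg3d differed by -6.05 (standard error 1.40) and all DSS arrays but only 1 of 3 DSS+PAMK arrays had it well above background, so the size rests partly on signals near background. The same holds for Wfdc21, a small secreted protein of the whey acidic protein family, which differed by -3.996 and was measured on 2 of 3 DSS+PAMK arrays.

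Enzymes that make or use oxidants were part of the same list. Ido1, which degrades tryptophan, had 12.19, 10.94 and 11.76 on the DSS arrays and 8.19, 9.90 and 9.65 on the DSS+PAMK arrays, and Nos2, the inducible nitric oxide synthase, had 8.28, 7.33 and 6.49 and 4.44, 6.24 and 4.39. In both genes all DSS arrays were above all DSS+PAMK arrays, and for Nos2 DSS+PAMK replicate 2 lay close to the lowest DSS array. Duox2, the hydrogen peroxide producing oxidase of the epithelial surface, and Duoxa2, the factor that brings it to the membrane, differed by -1.20 and -1.65. Defa3, an alpha-defensin, was at least 1.94-fold lower on the DSS+PAMK arrays, 0 of which had it well above background. For such a bound, each array of the dim group was given the probe's own signal or, where that was lower, the weakest signal found among probes well above background. With slide as a block, Nos2 and Defa3 missed the p threshold, where limma's unadjusted p was 0.0658 and 0.0515, and the within-slide difference of Nos2 was -1.57. Within slide 2 alone, Defa3 was called and Nos2 was not. The fitted difference of Defa3 was -1.56 with the block and -1.81 without it. Both values rest on DSS+PAMK signals that were not well above background.

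Genes of neutrophils, monocytes and macrophages formed the list with most named members, 17 of 44 with a tested probe. Limma called 16 lower and 0 higher, with a median of -1.54, or -1.22 within slide 2, and 16 of the 17 were named by the sheets, which had selected them on these arrays. Clec4d, a C-type lectin receptor of myeloid cells, had 11.13, 11.26 and 9.30 on the DSS arrays and 7.24, 8.86 and 7.43 on the DSS+PAMK arrays. DSS replicate 3 was the lowest DSS array and DSS+PAMK replicate 2 the highest DSS+PAMK array, and they did not cross. Marco, a scavenger receptor of macrophages, had 7.47, 6.88 and 4.89 and 1.25, 4.18 and 1.29, and only 1 of 3 DSS+PAMK arrays had it well above background.

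The list also held receptors and chemokines of these cells. Fpr2, a receptor for formylated peptides, had 9.68, 9.05 and 8.08 on the DSS arrays and 6.37, 7.91 and 5.64 on the DSS+PAMK arrays, and its relative Fpr3 differed by -1.84. Cxcr2, the receptor for neutrophil chemokines, was at least 2.66-fold lower, with 0 of 3 DSS+PAMK arrays well above background. Gpr84, a receptor for medium-chain fatty acids on myeloid cells, differed by -2.30 (standard error 0.55). The monocyte chemokine genes Ccl8 and Ccl12 differed by -1.38 and -1.54, the IgG receptor genes Fcgr1 and Fcgr4 by -1.10 and -1.25, and Itgam, the CD11b integrin chain, by -1.18. The inhibitory receptor gene Lilrb4a and its relative Lilr4b differed by -1.28 and -1.30, and Tarm1, an activating receptor of myeloid cells measured on 1 of 3 DSS+PAMK arrays, by -1.47. Ccr2, the monocyte chemokine receptor, had 8.27, 7.76 and 7.56 and 6.80, 7.55 and 6.65, differed by -0.86 and was not called.

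S100a8, named by its transcript start and not by the sheets, had 11.18, 10.50 and 7.14 on the DSS arrays and 4.55, 8.41 and 2.63 on the DSS+PAMK arrays. The groups overlapped, because DSS+PAMK replicate 2 lay above DSS replicate 3, and 2 of 3 DSS+PAMK arrays were well above background. The gene was called lower by 4.41 (standard error 1.46), within slide 2 the difference was -2.34 and limma's unadjusted p with slide as a block was 0.155, and the call was also lost with the methods' t-test, without DSS replicate 1, at -3.62, and without DSS+PAMK replicate 3, at -3.12. The same arrays recurred over the named genes: among the 108 called lower, DSS+PAMK replicate 2 was the array nearest to the DSS group in 72 (66.7%), against 46.6% of the 952 probes called lower and 38.3% of all tested probes. DSS replicate 3 was the nearest to the DSS+PAMK group in 71 (65.7%) of these genes, against 39.3% and 33.3%, while over the 952 probes DSS replicate 2 was nearest most often, in 45.4%. Both arrays lay on slide 2, and within that slide the called differences of the myeloid genes were mostly smaller. For Fcgr1, Fcgr4, Fpr2, Fpr3, Gpr84 and Cxcr2 the call was lost there. Fcgr1 and Fcgr4 were under 2-fold within slide 2, at -0.70 and -0.82. Fpr2, Fpr3, Gpr84 and the dim Cxcr2 missed only the p threshold, at -1.43, -1.19, -1.44 and -1.83. With slide as a fixed block, Fpr2, Fpr3 and Gpr84 were called at the same differences.

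Of 27 Th17 and Treg genes, 3 had a named probe and 2 a tested one, and both tested genes were named by the sheets. Ifng, the type II interferon of T and natural killer cells, had 5.80, 4.66 and 4.13 on the DSS arrays and was called at least 2.69-fold lower on the DSS+PAMK arrays, 0 of which had it well above background, but within slide 2 the call was lost. Foxp3, the transcription factor of regulatory T cells, had 6.26, 6.50 and 6.39 and 5.65, 6.12 and 5.86, with every DSS array above every DSS+PAMK array, and differed by -0.51, which is under 2-fold and was not called. Il17a, the cytokine of Th17 cells, was well above background on 2 of 3 DSS arrays and on 0 of 3 DSS+PAMK arrays and was therefore not tested, with 5.39, 5.78 and 3.11 and 1.21, 3.85 and 2.91. The median of the 2 tested genes was -1.05 and within slide 2 -0.78. Of 28 genes of IL-6 and STAT3, only Il11 had a named probe, which differed by -0.22 and was not called.

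Among 27 inflammatory cytokine genes, 3 had a named and tested probe, 2 of them called lower and 0 higher, with a median of -1.44 and within slide 2 of -1.28. Both called genes are listed by the sheets for a reversal that includes this comparison, so their direction follows from that choice. Of all tested probes, 1.06% were called lower. Il33, an alarmin of epithelial and stromal cells, had 10.91, 11.18 and 10.06 on the DSS arrays and 8.99, 9.71 and 9.15 on the DSS+PAMK arrays, and Ptgs2, the inducible cyclooxygenase, had 8.47, 9.32 and 7.89 and 7.46, 6.79 and 6.89. All DSS arrays were above all DSS+PAMK arrays for both. Il18, an epithelial cytokine named through its primer, had 13.86, 13.37 and 13.37 and 14.25, 14.46 and 13.83, with overlapping groups, and was not called at 0.65. With slide as a block, Ptgs2 missed the p threshold at -1.48, while it was called within slide 2 alone.

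Of 44 interferon response genes, 7 had a named and tested probe, all named by the sheets, with 6 called lower, 0 higher and a median of -1.28, or -1.02 within slide 2. Ifi47, a GTPase induced by interferon gamma, had 10.42, 9.75 and 9.83 on the DSS arrays and 8.09, 8.81 and 8.24 on the DSS+PAMK arrays without overlap. Ifit1, which binds foreign RNA, differed by -1.28, Ifi204 and Ifi205 of the DNA sensing family by -1.11 and -1.59, and Ifitm1, a membrane protein against virus entry, by -1.11. Oasl2 had 8.22, 8.05 and 7.14 and 6.77, 7.51 and 6.99 and was not called. Under the normexp background, 1 of the 7 was called and the median was -0.67, and with slide as a block 3 were called.

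Acute phase and plasma protein genes were called lower in 10 of 10 members with a named and tested probe, of 28 listed, and all 10 were named by the sheets. Their median was -1.96 on the log2 scale, or -2.16 within slide 2. Hp had 11.93, 12.43 and 9.55 on the DSS arrays, 6.50, 8.89 and 5.50 on the DSS+PAMK arrays and 6.94, 6.81 and 7.63 on the Control arrays. Saa3, a serum amyloid A gene of inflamed tissue, had 8.07, 8.71 and 7.62, 6.10, 5.78 and 5.45 and 6.74, 5.56 and 6.48 in the same order, and differed by -2.36 (standard error 0.37, adjusted p = 0.555 from limma). For both genes the DSS arrays were above all DSS+PAMK and Control arrays. C3, the central complement component, had 13.91, 14.02 and 12.91 and 12.14, 12.54 and 11.71, also without overlap.

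Kng1 and Kng2, the kininogens from which bradykinin is cut, differed by -3.69 and -1.25, and were well above background on 1 and 2 of 3 DSS+PAMK arrays. Fga, the fibrinogen alpha chain, and Ren1, the protease renin, were each measured on 2 of 3 DSS+PAMK arrays and differed by -2.24 and -2.05. Itih4, an inter-alpha-trypsin inhibitor chain, differed by -1.81, the serpin gene Serpina3m by -1.86 and the coagulation factor gene F10 by -1.21. Under the normexp background, 5 of the 10 were called and the median was just under 2-fold, and F10 was under 2-fold within slide 2.

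Of 34 genes of extracellular matrix and its remodeling, 6 had a named and tested probe, all named by the sheets and all called lower, with a median of -1.54, or -1.69 within slide 2. Mmp3, the stromelysin of activated fibroblasts, had 9.25, 10.13 and 7.98 on the DSS arrays, 6.53, 7.19 and 5.94 on the DSS+PAMK arrays and 4.76, 4.90 and 5.22 on the Control arrays. Mmp7, matrilysin, an epithelial protease that also activates defensins, had 9.38, 9.17 and 9.39, 6.11, 6.96 and 5.66 and 7.42, 2.79 and 6.94. The DSS arrays lay above all other arrays for both, and the DSS+PAMK arrays of Mmp3 lay above those of the Control group. Rspo1, a secreted enhancer of Wnt signaling, differed by -1.64, the protease inhibitor gene Serpine2 by -1.44, Prrx1, a transcription factor of mesenchymal cells, by -1.21, and the lipocalin gene Apod by -1.10. The call of Mmp7 was lost with slide as a block, where limma's unadjusted p was 0.0975, and without DSS+PAMK replicate 3, where it differed by -2.78. Within slide 2 alone it was called at the same difference as with the block, -2.75, with an unadjusted p of 0.000448 from limma. The Control arrays, which enter the block fit but not slide 2, had a standard deviation of 2.55 for Mmp7.

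**Figure D4:**
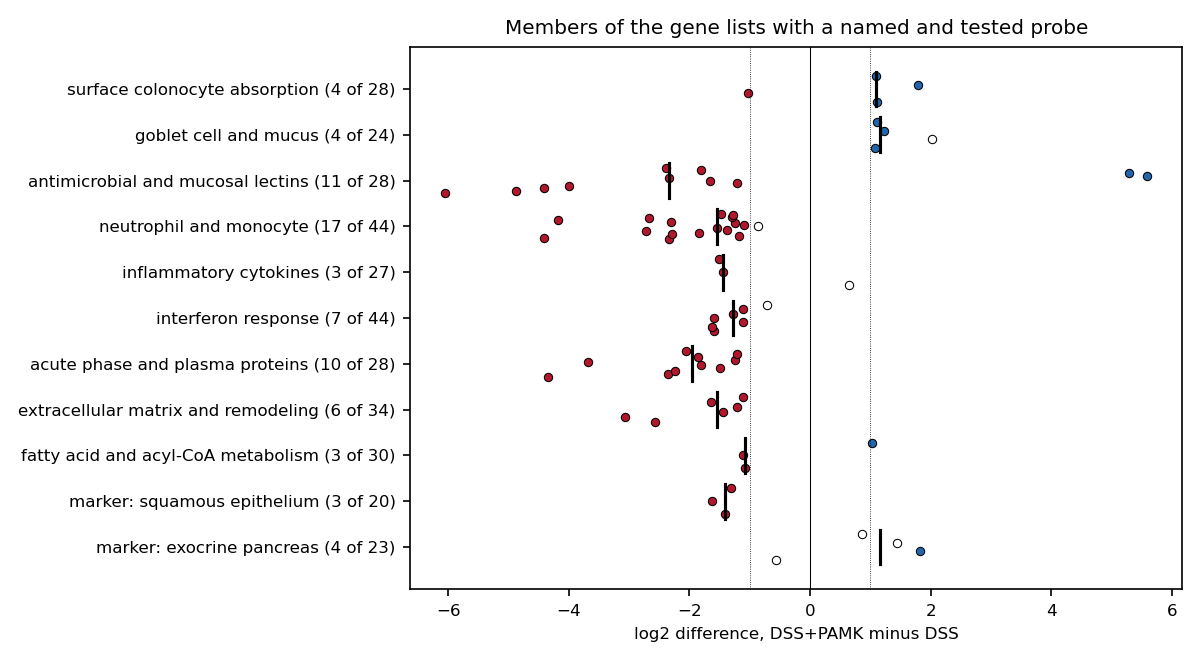
Log2 difference, DSS+PAMK minus DSS, of every list member with a named and tested probe, for lists with at least 3 such members (in brackets, tested of listed). Filled points were called, open points were not, dotted lines mark 2-fold and black bars the median of the list, which is -1.96 for acute phase and plasma proteins and 1.17 for goblet cell and mucus genes.

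Of 30 genes of fatty acid and acyl-CoA metabolism, 3 had a named and tested probe, all named by the sheets, and they did not move one way. Acsm3, a medium-chain acyl-CoA synthetase, was called higher at 1.03, while Acox2, a peroxisomal oxidase of branched acyl-CoA and bile acid intermediates, and Acat3, an acetyl-CoA acetyltransferase, were called lower at -1.11 and -1.07. For Acat3 the values were 5.82, 5.93 and 5.69 on the DSS arrays and 4.95, 4.61 and 4.66 on the DSS+PAMK arrays, without overlap. Acox2 missed the threshold without any 1 of the 6 arrays, at differences between -1.21 and -0.94, and the calls of all 3 were lost under the normexp background.

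Further genes with large rises belonged to no list. Crisp3, a cysteine-rich secretory protein gene, had 4.22, 4.28 and 4.98 on the DSS arrays and 7.28, 5.42 and 6.43 on the DSS+PAMK arrays, and Capn13, a calpain protease gene, had 6.54, 5.67 and 5.81 and 7.49, 7.27 and 7.07. Both were without overlap, with DSS+PAMK replicate 1 the highest array. Igfn1, the transcript AI854703, Scin, which severs actin filaments, Sun2 of the nuclear envelope, and the transcripts Gm44673 and A630001G21Rik differed by 1.42, 1.41, 1.14, 1.17, 1.13 and 1.13. The transcript Gm44930 was higher by at least 1.90-fold, with 0 of 3 DSS arrays well above background, and Tmem132c, measured on 1 of 3 DSS arrays, differed by 1.32. Most of these were dim, and under the normexp background Crisp3, Capn13, Igfn1, Sun2, AI854703, Gm44673, A630001G21Rik, Gm44930 and Tmem132c were under 2-fold. Scin was under 2-fold with slide as a block, at 0.98, and without DSS+PAMK replicate 1, at 0.93. With slide as a block, AI854703 and Gm44673 missed the p threshold, at differences of 1.37 and 1.08. Within slide 2 alone, both were called at these differences.

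Markers of other cells that a piece of colon can hold moved with the groups in part. Of 16 defining markers of colon epithelium, 0 had a named probe, so the labeled tissue could not be checked against them, and the lists of smooth muscle, T cells, B and plasma cells, enteric nerve, epithelial junctions and crypt stem cells also had 0. Myot, the only 1 of 13 skeletal muscle markers with a named probe, had 7.33, 6.81 and 6.70 on the DSS arrays and 4.48, 5.81 and 3.39 on the DSS+PAMK arrays and was called lower at -2.39. Of 20 squamous epithelium markers, the 3 with a named probe, Lce3a, Lce3b and Lypd3, were called lower at -1.42, -1.62 and -1.31, and their summed intensity was 217, 211 and 126 on the DSS arrays and 75.2, 64.2 and 69.6 on the DSS+PAMK arrays, with Lypd3 the brightest. Under the normexp background all 3 were under 2-fold, at -0.48, -0.55 and -0.66. The sheets list Myot and these 3 genes for a reversal that includes DSS+PAMK against DSS, so their lower calls follow from that choice. Of all tested probes, 1.06% were called lower. The part of skeletal muscle and squamous cells in the other differences was not tested.

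Pancreatic enzyme genes went the other way in part. Of 23 exocrine pancreas markers, 4 had a named probe, with Clps, pancreatic colipase, the brightest, and their summed intensity was 2991, 2343 and 2945 on the DSS arrays, 9832, 3287 and 4118 on the DSS+PAMK arrays and 25970, 23250 and 20330 on the Control arrays. Pnliprp1, a lipase-related protein gene, was at least 3.48-fold higher with PAMK and well above background on 0 of 3 DSS arrays, with its call lost under the normexp background, while Clps at 0.87, Pnliprp2 at 1.44 and Ctrl at -0.56 were not called. Without DSS+PAMK replicate 1, the difference of Pnliprp2 was 0.55, so its value leaned on that array. The mast cell gene Ms4a2 differed by -0.30, Cpa3 by just under 2-fold in the same direction, and the fat marker Lipe by -0.38, and these were not called. Whether pancreatic or mast cell RNA took part in the differences of the other groups was not tested.

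Over the called named genes as a whole, all 139 had the same sign within slide 2, and 111 kept an unadjusted p of at most 0.05 with slide as a fixed block. The plot of all arrays against slide 2 shows where the sizes differ: Reg3g and Reg3d were alike, at -4.95 and -6.18 within the slide, while Hp, Marco and S100a8 were smaller there, at -3.29, -3.17 and -2.34, and Kng1 larger, at -4.23. Sizes also leaned on single arrays, and with any 1 left out the difference lay between -6.89 and -5.12 for Reg3d, -5.15 and -3.65 for Marco, -5.13 and -3.06 for Wfdc21, -4.38 and -2.98 for Kng1 and 4.56 and 6.22 for Mptx2. The same ranges were -3.35 to -2.37 for Clec4d, -3.02 to -1.81 for Myot, -2.95 to -1.89 for Nos2 and -2.93 to -1.80 for Fpr2. The largest sizes came without DSS+PAMK replicate 2 for Hp, Reg3d, Marco, Wfdc21, Kng1, Myot, Nos2 and Fpr2, without DSS replicate 3 for Clec4d and without DSS replicate 1 for Mptx2. The normexp background made most sizes smaller. Under it, Reg3d differed by -3.22, Wfdc21 by -1.81, Marco by -1.31, Kng1 by -1.11, S100a8 by -2.81, Hp by -3.68, Mmp7 by -2.36, Saa3 by -1.57, Nos2 by -1.28 and Myot by -1.06, while Reg3g, Mptx1 and Mptx2 stayed near their values, at -4.83, 5.48 and 5.13. The calls of Gpr84, Cxcr2, Fcgr1, Fpr3, Itgam, Tarm1, Defa3, Ifng, Apod and Prrx1 were lost under it. DSS replicate 1, on slide 1, was among the higher DSS arrays for Hp, Marco and S100a8 and the lowest for Kng1.

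**Figure D5:**
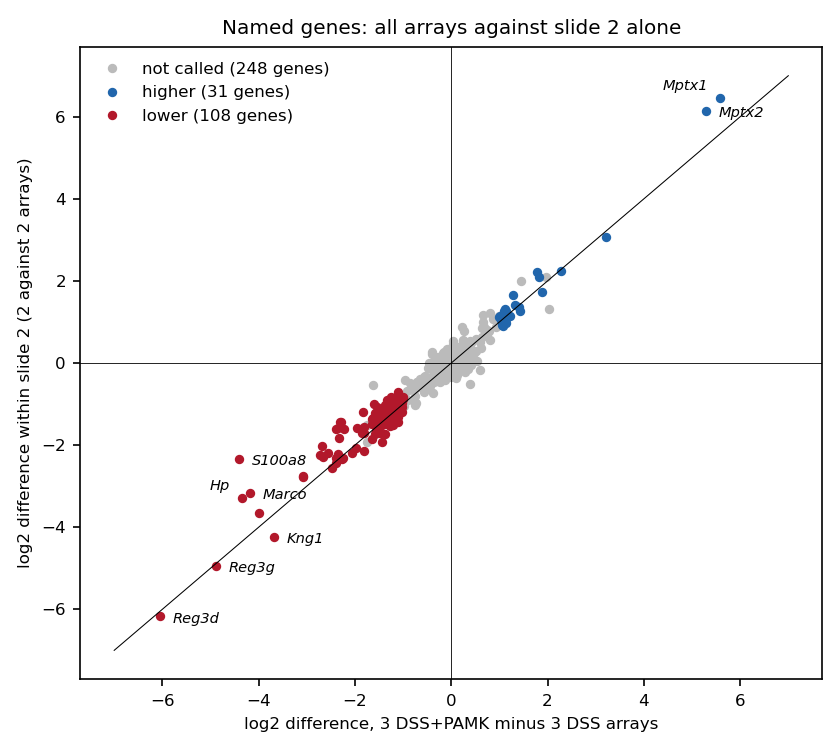
Log2 difference of each named and tested gene over all 6 arrays (horizontal axis) against the difference within slide 2, 2 DSS+PAMK against 2 DSS arrays (vertical axis), with the line of equal values. The 31 genes called higher and 108 called lower lie on the same side of 0 on both axes, and S100a8 lies at -4.41 and -2.34.

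Beside the Control arrays, which share neither treatment, the called probes are given group by group without a test, since they were chosen on the DSS and DSS+PAMK arrays. The 540 probes called higher had medians relative to the Control mean of -0.62 for the DSS group and 0.73 for the DSS+PAMK group, and 400 (74.1%) and 357 (66.1%) of them lay within 2-fold of it. The 952 called lower had medians of 0.87 and -0.48, with 516 (54.2%) and 640 (67.2%) within 2-fold. Over all tested probes the share was 96.7% for either group. Of the named genes, 16 of 31 higher and 9 of 108 lower lay within 2-fold of the Control mean in the DSS group and 23 and 84 in the DSS+PAMK group, and many of them were selected by the sheets for a reversal. The Control arrays themselves differed for the higher probes, with medians of -0.48, 0.67 and -0.22, so that Control replicate 2 lay beside the DSS+PAMK arrays, at 0.80, 0.76 and 0.66. For the lower probes too, Control replicate 2, at -0.34, lay beside the DSS+PAMK arrays, at -0.42, -0.42 and -0.33, with the other Control arrays at 0.17 and 0.24.

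Promoters of the lower genes were searched for the letters TTCNNNGAA, a palindrome that STAT proteins are known to bind and that therefore reads alike on both strands, in the 250 bases before and 50 bases after the transcript start. The motif was in the window of 11 of 80 genes called lower (13.8%) and 0 of 24 called higher, against 41 of 349 named and tested genes (11.7%) and 2582 of 27025 genes in the RefSeq table (9.55%). Stretches of 4 genes called lower, an acute phase pair, an IgG receptor and the interferon gene, are shown as examples, with the motif in capitals. These genes were named by the sheets, and under the normexp background they were under 2-fold, at -0.88, -0.81, -0.94 and -0.40.
Fga: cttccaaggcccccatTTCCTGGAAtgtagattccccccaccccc
Itih4: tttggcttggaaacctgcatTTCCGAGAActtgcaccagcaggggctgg
Fcgr1: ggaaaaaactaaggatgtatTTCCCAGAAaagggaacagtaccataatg
Ifng: tTTCAGAGAAtcccacaagaatggcacagg
They lie on GRCm38.p6 at chr3:83025903-83025947 on the plus strand, chr14:30886405-30886453 on the plus strand, chr3:96294050-96294098 on the minus strand and chr10:118440796-118440825 on the plus strand, and were taken from RefSeq. The motif began 234, 51, 109 and 249 bases before the start. A match is a description of letters and not a site of binding, and the shares of lower genes and of all genes were not tested against each other.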

How the data were processed

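Total RNA of the 9 colonic samples was labeled with Cy3 and put by the authors on Agilent arrays of 1 color. They extracted the scans with Feature Extraction 10.7.1.1, and the deposited intensity of each spot is its processed signal, corrected for background within the array and not normalized between arrays. Control spots and outlier spots were left out, log2 values of the spots of a probe were averaged, and the arrays were quantile normalized over all 9. A probe with 10 spots counted as well above background where at least 50% of its spots were. Group means were fitted to the 9 arrays with limma 3.58.1 in R 4.3.3 (lmFit and eBayes, 6 residual and 2.65 prior degrees of freedom), with version 1.17.8 of data.table and statmod 1.5.0, and plots were made with matplotlib 3.10.9 and pandas 2.3.3. The procedure was tested on simulated data.

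Genes were named by the supplementary sheets (174 genes), by primers (2 probes alone) and, an addition to the naming rule made after the data were seen, by at least 30 consecutive bases identical to the transcript start of exactly 1 gene in the RefSeq promoter table (542 genes). A gene with several probes was represented by the brightest. The text names the 12 genes with the largest called change in each direction without overlap on all 6 arrays, 4 more in each direction that are below background on some arrays, the called and the brightest members of each list, and genes that the methods measured by PCR. Members and lists were chosen with earlier results of these data known. Of the genes of the rule, 84 had a tested probe, and a few of them are not reported here. Alternatives were another normalization, a normexp background, filters, the methods' t-test, blocks for replicate number and slide, slide 2 alone, and each array left out. The scan runs coincided with the slides. The number of arrays limits the precision.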

Additional observations from a re-analysis of the deposited data

How the results depend on the processing

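The 540 higher and 952 lower probes became 108 and 224 with a normexp background (offset of 50), 1801 and 2664 without a filter on dim probes and 279 and 437 with the filter on all 6 arrays, the last 2 because other probes are tested. The methods' t-test called 509 lower, and slide 2 alone gave 1084 higher from fewer arrays. With 1 array left out, the higher counts ranged from 359 to 913 and the lower from 692 to 1485, and the count after adjustment was 0 in every fit. The causes of the changes with the background and with single arrays were not tested. Of the probe calls, 19.7% were shared with the normexp background and 96.5% with a shift to the 75th percentile, which called 632 and 1369, 31.6% of them higher. The replicate numbers do not pair the samples: same-numbered arrays had correlations of -0.14, -0.01 and 0.13 in their deviations from the group means, and the fit with the replicate number as a block called 536 and 979, and 0 after adjustment. Slide as a random block called 539 and 943 (correlation 0.057). Over the 84 genes of the naming rule, 0 of 1577 values turned the sign of a called difference, 1455 kept their side of the threshold, 110 no longer passed it and 12 newly passed it, with the normexp background taking 37 of the 110, slide as a fixed block 18 and slide 2 alone 15. The uncalled Ms4a2 had 0.0087 without DSS replicate 1 in place of -0.30. Of the list medians, 195 moved by no more than the spread between the DSS+PAMK replicates and 14 by more, and the spread of the DSS arrays was not part of this measure. Signals near background limit the sizes given for dim probes, most of all where a group was measured on some arrays only.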

Other observations

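Further named genes were called outside the rule for naming and were chosen here after their values were seen. Ceacam12, a carcinoembryonic antigen family gene, differed by -2.27 between DSS+PAMK and DSS, and its 3 probes lay between -2.27 and -2.13. Gzmb, the granzyme of cytotoxic lymphocytes, had 7.78, 7.75 and 8.02 on the DSS arrays and 5.85, 6.97 and 5.81 on the DSS+PAMK arrays, without overlap. Among enzymes, Alox15, a lipoxygenase, was also lower, at -1.30, and so was Aldh1a3, a retinaldehyde dehydrogenase, at -1.20. Hsph1, a heat shock protein, differed by -1.07, with means of 13.13 in the DSS group, 12.06 in the DSS+PAMK group and 13.91 in the Control group, so that the DSS+PAMK mean lay farther from the Control mean than the DSS mean did. Among the higher genes, Fgfr3, a fibroblast growth factor receptor, differed by 1.05 and Itih5, of the inter-alpha-trypsin inhibitor family, by 1.04.

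Probes without a gene name included some of the largest differences. The probe mclstr_4626_5867_4 had 11.59, 9.03 and 8.65 on the DSS arrays, 13.50, 13.82 and 13.08 on the DSS+PAMK arrays and 8.88, 14.35 and 9.67 on the Control arrays, and was called higher at 3.71. The probe mclstr_104869_419_10 was called lower at -5.12, with 16.11, 15.95 and 17.77 on the DSS arrays, 10.77, 12.67 and 11.03 on the DSS+PAMK arrays and 14.81, 7.02 and 10.98 on the Control arrays. The groups did not overlap for either, while their Control arrays lay far apart from each other. Of the circular RNA probes, 8 of 9214 tested CIRCpedia probes were called higher and 19 lower (0.293% in either direction), and 5 and 8 of 3427 mmu_circ probes (0.379%), against 1.88% of the 77072 cluster probes.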
